A study of Homo sapiens with 10 samples.

Results

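The subject is a set of 9 genes of major histocompatibility complex (MHC) class I antigen presentation, measured as polyA RNA in human embryonic stem cells. They are the heavy chain genes HLA-B, HLA-C, HLA-E, HLA-F and HLA-G, the light chain gene B2M, and the peptide loading genes TAP1, TAP2 and TAPBP. They were chosen by symbol, not by a cut on their values, from the 32152 genes of the count table, though earlier results of these data were known. The libraries were made from the line WAe009-A (also called H9), 5 from cells labelled as a knockout (KO) of KCNH2 and 5 from isogenic wild-type (WT) cells. KCNH2 codes for the hERG1 potassium channel, and the series asked which transcripts depend on it in undifferentiated cells. The titles and the growth protocol call the edited cells a knockout, whereas the genotype label reads knockdown. The number of clones was not given in the sources used here. The titles of all 5 KO libraries share a numbered prefix that the WT titles lack, so they may come from a single clone. An effect of that clone could then not be told apart from genotype. KO cells were grown in mTeSR Plus and WT cells in TeSR-E8, both on Matrigel for at least 4 days to about 80% confluency, so medium and genotype cannot be told apart in any comparison. The labels do not state that replicates were cultured separately. The p-values therefore measure only the spread between libraries, which may be technical.

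MHC class I molecules display short peptides from inside the cell at its surface, where CD8 T cells and natural killer cells read them. A polymorphic heavy chain pairs with beta-2-microglobulin in the endoplasmic reticulum, and the TAP1 and TAP2 transporter delivers peptides there while tapasin, the product of TAPBP, holds the empty molecule beside it. Pluripotent stem cells are known for low class I levels that interferon can raise. HLA-B and HLA-C are classical heavy chains, and HLA-E, HLA-F and HLA-G are less polymorphic relatives with roles in the control of natural killer cells. Class I promoters are known to share an upstream module with a kappa B site, an interferon-stimulated response element, a CRE-like site and an inverted CCAAT box.

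The 4 heavy chain genes whose KO and WT libraries did not overlap are shown by the 250 bases before their RefSeq start, because HLA-B and HLA-C were higher in KO while HLA-F and HLA-G were lower. RefSeq windows (GRCh38.p14) were matched for 8 of the 9 genes, and HLA-E had none. The windows are chr6:31357180-31357429 on the minus strand for HLA-B, chr6:31272093-31272342 on the minus strand for HLA-C, chr6:29723184-29723433 on the plus strand for HLA-F and chr6:29827575-29827824 on the plus strand for HLA-G. HLA-G had 3 windows in the table, and the one nearest to the start of its GENCODE principal transcript was used. Each is written 5′ to 3′ along the gene, and capitals mark matches on either strand to the kappa B consensus, to GAANNGAAA or a longer form with 2 bases between GAAA and GAAA (the interferon response element), to TGACGC (the CRE-like core) and to ATTGG (the inverted CCAAT box).
HLA-B: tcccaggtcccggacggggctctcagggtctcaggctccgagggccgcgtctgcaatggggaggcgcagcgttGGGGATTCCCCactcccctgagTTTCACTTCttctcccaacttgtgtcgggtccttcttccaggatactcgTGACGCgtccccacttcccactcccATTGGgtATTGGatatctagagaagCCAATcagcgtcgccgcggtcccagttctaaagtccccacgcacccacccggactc
HLA-C: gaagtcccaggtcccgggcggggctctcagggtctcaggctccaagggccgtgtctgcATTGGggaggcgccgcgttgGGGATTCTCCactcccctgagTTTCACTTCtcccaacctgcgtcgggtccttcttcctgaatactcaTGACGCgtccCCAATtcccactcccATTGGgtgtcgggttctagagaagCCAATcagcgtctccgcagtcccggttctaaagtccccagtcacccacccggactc
HLA-F: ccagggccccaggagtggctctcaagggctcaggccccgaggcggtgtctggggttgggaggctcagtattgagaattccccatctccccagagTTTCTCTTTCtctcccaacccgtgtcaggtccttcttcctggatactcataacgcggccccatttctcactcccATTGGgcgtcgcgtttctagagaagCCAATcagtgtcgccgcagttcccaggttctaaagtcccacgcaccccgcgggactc
HLA-G: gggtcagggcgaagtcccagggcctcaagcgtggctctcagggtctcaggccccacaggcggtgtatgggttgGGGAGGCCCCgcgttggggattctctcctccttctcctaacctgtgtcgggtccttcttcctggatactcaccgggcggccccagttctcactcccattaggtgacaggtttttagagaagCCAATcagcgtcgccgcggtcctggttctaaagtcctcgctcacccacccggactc

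The motifs were searched on both strands in windows of 250 bases before and 50 after the start, and the background is the share of 34796 different RefSeq windows of that length with a match. HLA-B and HLA-C both carried a kappa B match, GAANNGAAA, TGACGC and ATTGG in that order, and HLA-C had a further ATTGG upstream of them. The kappa B match began 177 bases before the start in HLA-B and 172 in HLA-C. Both had a GAANNGAAA match, 155 bases before the start in HLA-B and 151 in HLA-C, and a TGACGC match, 106 bases before it in HLA-B and 105 in HLA-C. The HLA-F window held a match to the longer interferon element 156 bases before the start and ATTGG matches, but no match to the kappa B consensus or to TGACGC. The HLA-G window held a kappa B match 177 bases before the start, and neither form of the interferon element nor TGACGC. That kappa B match reads GGGAGGCCCC. The HLA-G stretch that resembles the HLA-B site, ggggattctctcc, lies just downstream of it and did not match the consensus. The 1 ATTGG match of HLA-G was on the opposite strand and reads CCAAT along the gene, 56 bases before the start. HLA-B, HLA-C and HLA-F had such a CCAAT as well as ATTGG along the gene, which HLA-G lacked. A missing match says only that these letters are not in this window. Over the 8 windows, the kappa B consensus matched in 6 (background 11.3%), ATTGG in 6 (34.6%), the longer interferon element in 5 (3.57%), GAANNGAAA in 3 (7.65%) and TGACGC in 3 (9.1%). These counts take either strand, and HLA-G is among the 6 for ATTGG only through the opposite strand. Besides HLA-B and HLA-C, GAANNGAAA and TGACGC matched in TAP2, which was lower in KO. B2M, TAP1 and TAPBP had neither, and of these B2M and TAP1 were higher in KO and TAPBP lower. The matches to GAANNGAAA and to the longer form overlap in TAP2. In a global alignment of the windows, HLA-B and HLA-C were identical at 88.5% of aligned columns, against 79.7% for HLA-B and HLA-F, 74.5% for HLA-B and HLA-G, and 73.8% for HLA-F and HLA-G. These matches are descriptions of sequence, and binding was not measured.

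Library totals were 29788732 to 40587206 counts in KO and 28615751 to 47319933 counts in WT. CPM below are counts per 1000000 after TMM scaling, errors are SD over 5 libraries in each group, and adjusted p-values are from edgeR's quasi-likelihood test over 19163 tested genes, with a call at 0.05. KCNH2 mRNA was lower in KO, at 12.2 ± 1.0 CPM against 15.5 ± 0.754 CPM in WT (log2 fold change -0.35, SE 0.06, edgeR adjusted p = 6.48e-04). Most of the mRNA remained. Where the gene was edited was not given in the sources used here, and total mRNA is no check on the protein. On log2 CPM of all tested genes, KO replicate 3 stood apart from the other KO libraries on the second principal component (28.3% of variance), with WT replicates 3 and 2 on the same side. The pluripotency markers were abundant in every library, with a summed level of 6436.7 to 6828.6 CPM in KO and 5588.3 to 5891.1 CPM in WT. Of the 8 leukocyte markers in the table, all were under 1 CPM in both groups, with a summed level of 1.38 to 2.26 CPM in KO and 1.51 to 2.45 CPM in WT. Fibroblast markers summed to 830.9 to 955.3 CPM in KO and 950.4 to 1027.2 CPM in WT. Most of that was THY1, at 729.8 ± 58.9 CPM in KO and 729.4 ± 30.5 CPM in WT. COL1A1 and COL1A2 were lower in KO, THY1 and PDGFRB were not called, and COL3A1 was near 0 in both groups. Endothelial markers summed to 82.8 to 85.9 CPM in KO and 74.5 to 78.6 CPM in WT, with 2 of 5 tested higher (KDR, TEK) and 2 lower (CDH5, VWF). Most of that sum was KDR, at 69.3 ± 2.9 CPM in KO and 64.1 ± 1.9 CPM in WT, and PECAM1 was under 1 CPM in both. The part of these markers in the results below was not tested.

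All 9 genes passed the filter on low counts. In KO, 5 were higher (HLA-B, HLA-C, HLA-E, B2M and TAP1) and 4 were lower (HLA-F, HLA-G, TAP2 and TAPBP). Calls were common in this comparison, at 46% of all tested genes, with 21.9% higher in KO and 24.1% lower, so a call by itself sets these genes little apart. Groups did not overlap for 6 of the 9, against 34% of all tested genes. KO was above WT for 4 (16.3% of all tested genes) and below WT for 2 (17.7%). The median log2 fold change of the 9 was 0.11, beside 0.002 over all tested genes. HLA-B was the one gene of the set past 1.5 on the log2 scale, which 1.24% of all tested genes passed with a call. HLA-F and HLA-G thus differed in direction from the other heavy chains, as did TAP2 from TAP1.

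**Figure D1:**
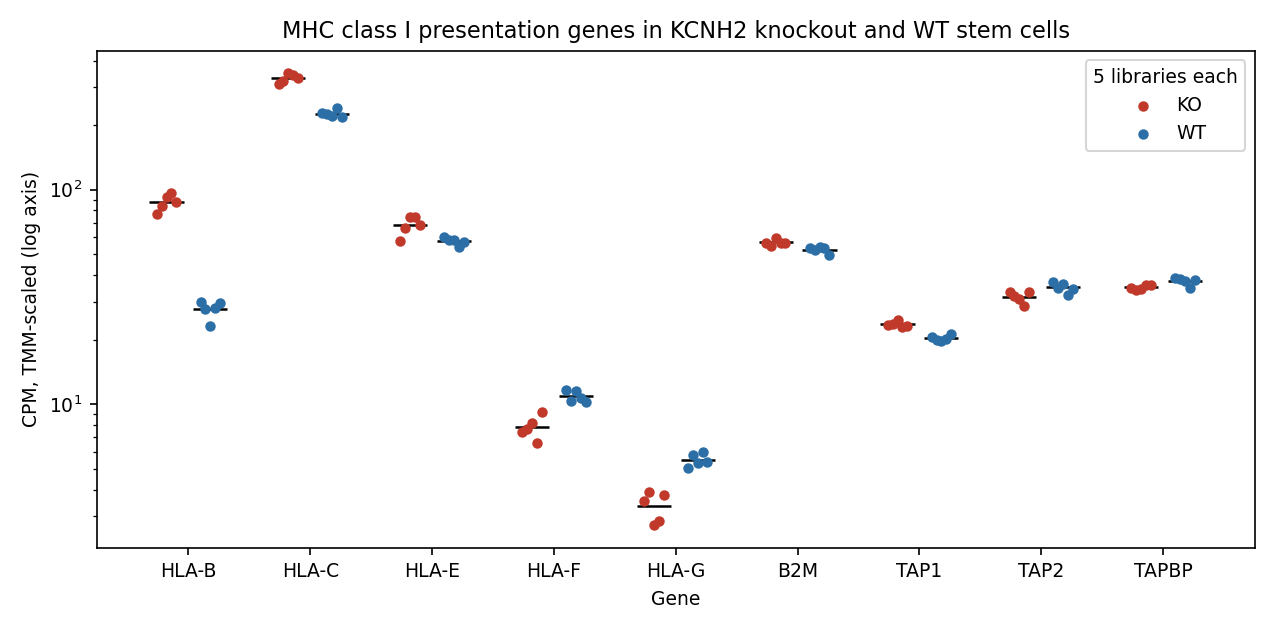
TMM-scaled CPM on a log axis for the 9 class I presentation genes, with 1 point per library, KO left of WT, and a line at the mean of 5 libraries. The HLA-B points sit at 76.7 to 96.5 CPM in KO and at 23.1 to 30.0 CPM in WT, while the HLA-F and HLA-G points of KO lie below all of those of WT.

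HLA-B, a classical heavy chain that presents peptides to CD8 T cells, had the largest change of the set. It measured 76.7, 83.7, 92.8, 96.5 and 88.0 CPM in KO libraries 1 to 5, against 30.0, 27.8, 23.1, 28.0 and 29.5 CPM in WT libraries 1 to 5. Every KO library lay far above every WT library. The means were 87.5 ± 7.74 CPM in KO and 27.7 ± 2.74 CPM in WT, a fold of 3.16 (log2 fold change 1.66, SE 0.08, edgeR adjusted p = 2.85e-08). Among 12433 tested genes with at least 5 CPM in the higher group, its log2 fold change was number 39 from the highest. Over 20 alternative fits it stayed between 1.55 and 1.72 and was called in each. The gene (ENSG00000234745) is annotated in GENCODE 29 (GRCh38) at chromosome 6, 31269491 to 31357188, minus strand. That long model reaches into HLA-C and shares 35 exon bases with it, and 542 bases (17.8%) of its exons are shared with the antisense gene AL671883.2.

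HLA-C, the other classical heavy chain, also engages killer cell receptors on natural killer cells. Its levels were 309.4, 322.3, 348.5, 342.2 and 332.0 CPM in KO libraries 1 to 5 and 226.8, 225.3, 219.4, 239.2 and 217.7 CPM in WT libraries 1 to 5. The lowest KO library was well above the highest WT library. The mean was 330.9 ± 15.6 CPM in KO and 225.7 ± 8.47 CPM in WT, a fold of 1.47 (log2 fold change 0.55, SE 0.04, edgeR adjusted p = 6.33e-07). It was called in all 20 alternative fits, between 0.43 and 0.59 on the log2 scale. HLA-C (ENSG00000204525) lies at chromosome 6, 31268749 to 31272130, on the minus strand. The heavy chains are near-identical over long stretches and how reads with several matches were counted was not given in the sources used here. The split of reads among them is therefore uncertain, and with it how much of each change belongs to each gene.

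HLA-E presents leader peptides of other class I chains to the CD94/NKG2 receptors of natural killer cells. Its levels were 57.4, 66.3, 74.7, 74.7 and 68.3 CPM in KO libraries 1 to 5, against 60.0, 58.2, 58.4, 54.0 and 56.8 CPM in WT libraries 1 to 5. KO library 1 fell inside the WT range, while the other 4 KO libraries were above every WT library. HLA-E was 1.19-fold higher in KO, at 68.3 ± 7.18 CPM against 57.5 ± 2.27 CPM in WT (log2 fold change 0.25, SE 0.07, edgeR adjusted p = 0.00786). It kept its call in all 20 alternative fits, between 0.22 and 0.32 on the log2 scale. HLA-E (ENSG00000204592, chromosome 6, 30489467 to 30494205, plus strand) shared no exon bases with another gene of the annotation.

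HLA-F, a chain known to reach the surface as an open form and to engage natural killer receptors, moved the other way. It was counted at 7.39, 7.65, 8.17, 6.6 and 9.2 CPM in KO libraries 1 to 5 and at 11.6, 10.4, 11.5, 10.7 and 10.3 CPM in WT libraries 1 to 5. All KO libraries were below all WT libraries. The mean fell to 7.8 ± 0.966 CPM in KO, against 10.9 ± 0.61 CPM in WT (log2 fold change -0.48, SE 0.08, edgeR adjusted p = 5.59e-04). The call held in all 20 alternative fits, between -0.58 and -0.43. HLA-F (ENSG00000204642) lies at chromosome 6, 29722775 to 29738528, on the plus strand. It shares exon bases with antisense genes, 701 with AL645939.1 and 535 with HLA-F-AS1, and HLA-F-AS1 fell as well.

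HLA-G is known for its place on fetal trophoblast at the border with maternal tissue. Its levels were 3.56, 3.92, 2.73, 2.85 and 3.79 CPM in KO libraries 1 to 5, against 5.04, 5.83, 5.34, 5.96 and 5.38 CPM in WT libraries 1 to 5. The groups did not overlap, and KO libraries 3 and 4 were the lowest. Its mean was 3.37 ± 0.546 CPM in KO and 5.51 ± 0.381 CPM in WT (log2 fold change -0.71, SE 0.11, edgeR adjusted p = 2.97e-04). It was called in all 20 alternative fits, between -0.82 and -0.63. HLA-G (ENSG00000204632, chromosome 6, 29826967 to 29831125, plus strand) shares 455 of its exon bases (25.8%) with the antisense pseudogene HCG4P8, and the counts' strand setting was not given in the sources used here. The 2 markers of trophoblast and amnion that could be tested moved the same way. Of the 8 in the table, GABRP and KRT7 were tested and both were lower in KO, GABRP at 6.62 ± 0.419 CPM against 22.7 ± 2.44 CPM in WT and KRT7 at 5.86 ± 1.63 CPM against 9.03 ± 0.546 CPM in WT (edgeR adjusted p = 1.46e-08 for GABRP and 0.00752 for KRT7). The summed level of the 8 was 11.2 to 14.9 CPM in KO and 28.6 to 36.6 CPM in WT, while GATA3, TFAP2A, TP63, CDX2 and CGB3 were near 0 in both. Their part in the HLA-G result was not tested. In bulk libraries, fewer cells of a type and less RNA per cell cannot be told apart.

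B2M encodes beta-2-microglobulin, the light chain of class I molecules, and is the one gene of the set outside chromosome 6. It measured 56.2, 54.8, 59.7, 56.5 and 56.6 CPM in KO libraries 1 to 5, against 53.5, 52.1, 53.9, 53.2 and 49.6 CPM in WT libraries 1 to 5. The KO libraries were all higher, though the gap between the groups was narrow. Its means were 56.8 ± 1.79 CPM in KO and 52.4 ± 1.73 CPM in WT, a fold of 1.08 (log2 fold change 0.11, SE 0.03, edgeR adjusted p = 0.0125). The direction of this difference was not stable, since a correction for gene length and GC content turned it to -0.05 (edgeR adjusted p = 0.162). B2M (ENSG00000166710) spans chromosome 15, 44711487 to 44718877, on the plus strand.

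The summed level of the 5 heavy chain genes was 497.9 ± 29.8 CPM in KO and 327.2 ± 8.67 CPM in WT, a ratio of 1.52. Over B2M, the same sum was 8.77 ± 0.422 in KO and 6.24 ± 0.209 in WT. HLA-C made up most of the sum in both groups, at 66.5 ± 0.98% in KO and 68.9 ± 1.13% in WT. The share of HLA-B was 17.6 ± 0.578% in KO and 8.45 ± 0.763% in WT. The shares of HLA-E (13.7 ± 0.66% in KO, 17.6 ± 0.929% in WT), HLA-F (1.57 ± 0.205% in KO, 3.33 ± 0.203% in WT) and HLA-G (0.683 ± 0.139% in KO, 1.68 ± 0.107% in WT) were smaller in KO. HLA-E thus took a smaller share although its own level was higher, while HLA-B and HLA-C had added more CPM to the sum. Shares are of CPM and are not scaled for transcript length.

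Levels can be compared between genes only per length, here as CPM per kilobase of 1 transcript per gene. The order below depends on that choice of transcript, such as 1.705 kb for B2M and 1.547 kb for HLA-B. Other transcripts were not tried. HLA-C was highest in both groups, at 215.4 CPM per kilobase in KO and 146.9 in WT, and HLA-G lowest, at 2.14 CPM per kilobase in KO and 3.49 in WT. In KO, HLA-B came next after HLA-C with 56.6 CPM per kilobase, above B2M at 33.3 and HLA-E at 26.2. In WT, HLA-B stood lower in the order, at 17.9 CPM per kilobase, under B2M (30.8), HLA-E (22.1) and TAPBP (19.9) and above TAP2 (14.0). In KO no neighbours in the order overlapped between libraries, whereas in WT the ranges overlapped for TAPBP and HLA-B and for TAP1 and HLA-F. TAP2 was above TAP1 per length in both groups, at 12.7 CPM per kilobase against 7.95 in KO and 14.0 against 6.89 in WT.

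TAP1 and TAP2 form the transporter that pumps cytosolic peptides into the endoplasmic reticulum, and both lie in the class II region of the MHC. TAP1 measured 23.4, 23.6, 24.8, 22.8 and 23.1 CPM in KO libraries 1 to 5, against 20.6, 20.0, 19.8, 20.2 and 21.2 CPM in WT libraries 1 to 5. The KO libraries were all above the WT libraries, by little. TAP1 was 1.16-fold higher in KO, at 23.5 ± 0.756 CPM against 20.4 ± 0.545 CPM in WT (log2 fold change 0.21, SE 0.035, edgeR adjusted p = 5.01e-04), and was called in all 20 alternative fits. It lies at chromosome 6, 32845209 to 32853978 (ENSG00000168394, minus strand), and shares 456 exon bases with the antisense gene PSMB8-AS1.

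TAP2 was lower in KO, with levels of 33.2, 32.1, 31.0, 28.7 and 33.2 CPM in KO libraries 1 to 5 and 37.2, 34.7, 36.5, 32.4 and 34.6 CPM in WT libraries 1 to 5. The groups overlapped, since KO libraries 1 and 5 were above WT library 4. The means were 31.6 ± 1.87 CPM in KO and 35.1 ± 1.88 CPM in WT (log2 fold change -0.15, SE 0.05, edgeR adjusted p = 0.0265). This call was lost in 6 of 20 alternative fits, with an adjusted p of up to 0.141. Leaving out KO 3, KO 4, WT 1 or WT 3 alone ended it (edgeR adjusted p = 0.051, 0.0608, 0.0655 and 0.0641). TAP2 (ENSG00000204267, chromosome 6, 32821833 to 32838780, minus strand) shares 2064 exon bases (32.3%) with AL669918.1 on the same strand, so reads there could be counted for either.

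TAPBP encodes tapasin, which bridges the transporter and the empty heavy chain. Its levels were 34.7, 34.1, 34.4, 35.8 and 36.1 CPM in KO libraries 1 to 5 and 38.9, 38.3, 37.7, 34.8 and 37.9 CPM in WT libraries 1 to 5. WT library 4 lay within the KO range, and the other 4 WT libraries were above every KO library. The mean was 35.0 ± 0.88 CPM in KO and 37.5 ± 1.59 CPM in WT (log2 fold change -0.10, SE 0.036, edgeR adjusted p = 0.0375). This was the weakest call of the set and was lost in 14 of the 20 alternative fits, with an adjusted p of up to 0.263. Leaving out any 1 library other than KO 4, KO 5 or WT 4 ended it, with edgeR adjusted p from 0.0738 to 0.103. TAPBP (ENSG00000231925) lies at chromosome 6, 33299694 to 33314387, on the minus strand.

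**Figure D2:**
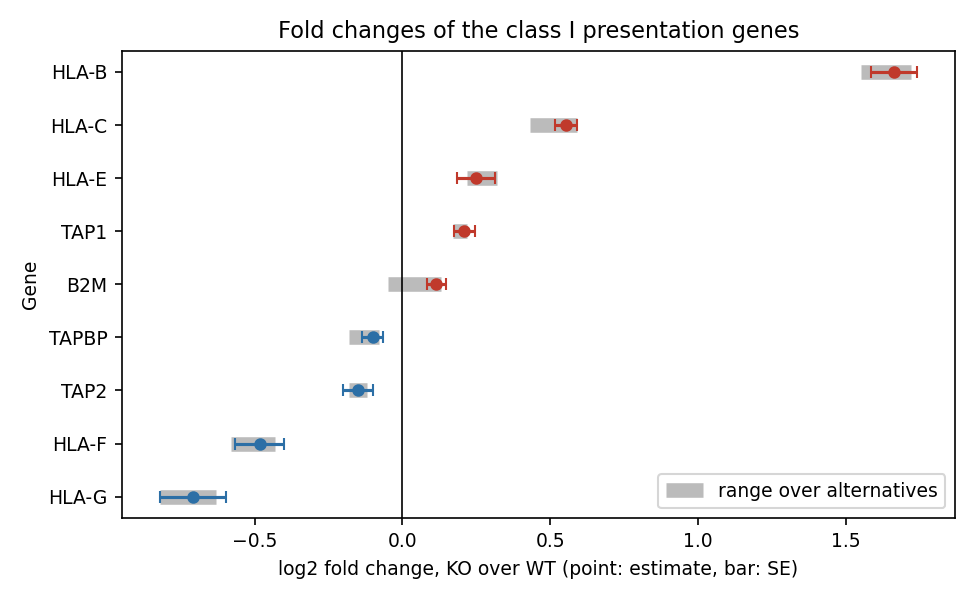
Log2 fold change of each gene, KO over WT, with the estimate as a point, its SE as a bar and the range over 20 alternative fits in grey. HLA-B stands at 1.66, well to the right of HLA-C at 0.55, and the grey range of B2M reaches across 0 to -0.05.

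The libraries of a group did not all move together. KO library 1 had the lowest HLA-B, HLA-C and HLA-E of the 5 KO libraries, and KO libraries 3 and 4 had the highest of all 3 genes and the lowest HLA-G. The SD of log2 CPM was larger in KO than in WT for HLA-E (0.157 in KO, 0.0575 in WT), HLA-F (0.176 in KO, 0.0798 in WT) and HLA-G (0.236 in KO, 0.0988 in WT). For HLA-B it was 0.129 in KO and 0.15 in WT, and for TAPBP 0.0361 in KO and 0.0624 in WT. The median SD of tested genes with at least 5 CPM was 0.0823 in KO and 0.0593 in WT. Differences in spread were not tested. None of the 9 genes had a single library that was flagged by Dixon's criterion for 5 values (a gap of 0.71 of the range). WT library 4 for TAPBP (34.8 CPM, other WT libraries 37.7 to 38.9 CPM) came close to that limit. So did WT library 3 for HLA-B (23.1 CPM, other WT libraries 27.8 to 30.0 CPM). For these the outcome may differ between CPM and log2 CPM.

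**Figure D3:**
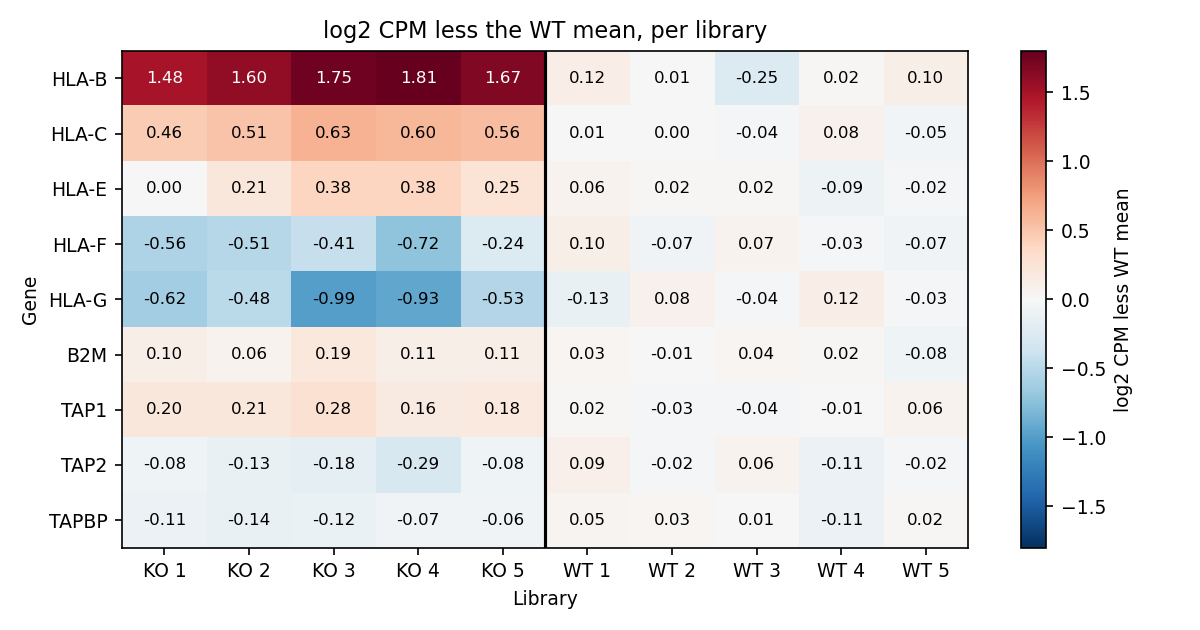
Log2 CPM less the mean of the WT libraries, for each gene in rows and each library in columns, KO left of WT. HLA-B runs from 1.48 to 1.81 over the KO libraries, HLA-E is at 0.00 in KO 1, and HLA-F and HLA-G are below 0 in all 5 KO libraries.

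The authors' deposited table gave log2 fold changes of 1.62 for HLA-B, 0.56 for HLA-C, 0.25 for HLA-E, -0.45 for HLA-F, -0.64 for HLA-G, 0.12 for B2M, 0.22 for TAP1, -0.14 for TAP2 and -0.09 for TAPBP. The sign was the same as in the edgeR fit for each of the 9. The authors' deposited table marked HLA-B and HLA-G as calls and not the other genes. That mark did not follow adjusted p alone, unlike the calls used here. The authors' DESeq2 adjusted p was 8.27e-42 for HLA-C, 2.52e-06 for HLA-F, 3.49e-05 for TAP1 and 5.90e-04 for HLA-E, all unmarked. B2M (7.04e-03) and TAP2 (3.30e-02) were also under 0.05 there, and TAPBP (8.94e-02) was not.

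Genes that act beside this set were described from lists of its pathway, 108 tested genes in all when each is counted once, of which 31 were higher and 27 lower in KO. With the correction for length and GC, 23 were higher and 33 lower. The lists were chosen with earlier results of these data known, and their counts are set against the background of calls given above. In the peptide loading and trimming list, 1 of 8 tested genes was higher and 4 were lower (median log2 fold change -0.07). Calreticulin (CALR), the chaperone that holds the heavy chain in the loading complex, averaged 863.8 ± 33.4 CPM in KO and 691.3 ± 37.1 CPM in WT (0.32, SE 0.04, edgeR adjusted p = 5.48e-05). ERAP1, which trims peptides in the endoplasmic reticulum, fell by 0.32 on the log2 scale, and the glycan-processing genes GANAB and UGGT1 fell by 0.22 and by 0.21. With the correction for length and GC, this list had 1 gene higher and 3 lower, and UGGT1 was at -0.05 and no longer called (edgeR adjusted p = 0.25). PDIA3, which is also part of the loading complex, was at 660.8 ± 6.54 CPM in KO and 639.7 ± 12.0 CPM in WT and was not called (edgeR adjusted p = 0.0949).

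The immunoproteasome makes peptides suited to class I. In its list with the proteasome activator, 5 of 7 tested genes were higher in KO and 0 lower (median 0.18). The catalytic subunits PSMB10 and PSMB8 were higher by 0.42 and 0.29 on the log2 scale, the assembly factor POMP by 0.28 and the activator subunit PSME2 by 0.18. PSMB8, a neighbour of TAP1, averaged 25.2 ± 1.46 CPM in KO and 20.6 ± 0.701 CPM in WT (edgeR adjusted p = 2.97e-04). PSMB9, the third catalytic subunit, was at 1.95 ± 0.236 CPM in KO and 2.08 ± 0.296 CPM in WT and was not called (edgeR adjusted p = 0.589). With the correction for length and GC, this list had 2 genes higher and 1 lower and a median of 0.05, PSME1 turned to -0.07, and POMP (0.06) and PSME2 (0.05) were no longer called. PSMB10 and PSMB8 kept their calls at 0.26 and 0.13, and PSME3, another activator subunit, was the lower one at -0.15.

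Among regulators of class I transcription, 4 of 21 tested genes were higher in KO, 5 were lower and 12 were not called, and with the correction for length and GC 2 were higher and 5 lower. NLRC5, the co-activator that drives class I genes, was low in both groups, at 2.1 ± 0.478 CPM in KO and 2.47 ± 0.332 CPM in WT, and was not called (log2 fold change -0.23, edgeR adjusted p = 0.277). IRF1, an interferon-induced activator of class I promoters, averaged 4.73 ± 0.574 CPM in KO and 6.91 ± 0.628 CPM in WT (-0.55, SE 0.10, edgeR adjusted p = 6.63e-04). NFKB1, a subunit of the factor that binds kappa B sites, fell by 0.32 on the log2 scale. EZH2, the methyltransferase of a complex known to silence class I genes in some tumours, fell by 0.28. IRF8, a factor of immune cells, was scarce, at 0.815 ± 0.0904 CPM in KO and 1.5 ± 0.197 CPM in WT (edgeR adjusted p = 3.02e-04).

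Interferon signalling genes moved in both directions. Of 13 tested receptor and JAK-STAT genes, 5 were higher and 2 lower in KO (median 0.08). The receptor chains IFNGR2, IFNAR2 and IFNAR1 were higher by 0.53, 0.40 and 0.37 on the log2 scale, and IFNGR2 averaged 44.3 ± 1.88 CPM in KO and 30.7 ± 0.555 CPM in WT (edgeR adjusted p = 4.74e-07). STAT2 fell by 0.29 and JAK1 fell by 0.36. Of 29 interferon-stimulated genes in the table, 19 were tested, with 6 higher and 4 lower in KO (median -0.08), and 12 of the 29 were under 1 CPM in both groups. The higher ones included ISG15 (20.4 ± 3.82 CPM in KO, 11.6 ± 0.751 CPM in WT), IFITM1 (277.4 ± 25.1 CPM in KO, 198.2 ± 5.12 CPM in WT) and IFITM3 (211.7 ± 4.63 CPM in KO, 143.6 ± 4.23 CPM in WT). The lower ones were IRF1, MX1, MX2 and OAS3. With the correction for length and GC, 4 were higher and 5 lower, and IFITM2 turned from a higher call to -0.04 (edgeR adjusted p = 0.338). IFITM1 and IFITM3 kept their calls at 0.28 and 0.35.

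Genes related to class I by structure, region or function were also counted. The MHC class II list also held the regulator CIITA and the invariant chain CD74, which were not called. Of its 13 tested genes, 1 was higher and 6 lower in KO (median -0.29). The lower ones included HLA-DQB1 with 15.3 ± 2.06 CPM in KO and 21.3 ± 1.12 CPM in WT, HLA-DOA (-0.32), HLA-DRB1 (-0.22) and HLA-DQA1 (-0.85). HLA-DRA was the higher one, at 1.89 ± 0.171 CPM in KO and 1.46 ± 0.189 CPM in WT. With the correction for length and GC, 8 were lower, CD74 among them, and 0 higher, with HLA-DRA at 0.20. A further list held class I-like molecules, natural killer ligands and other surface proteins (CD46, CD47, CD55 and CD59). CD46 and CD47 were its 2 lower calls, and CD55 and CD59 were among its 6 higher calls. Of its 14 tested genes, 6 were higher and 2 lower (median 0.08), or 6 and 4 with the correction for length and GC. They included PROCR (0.55), the lipid-presenting CD1D (0.77), FCGRT, the Fc receptor heavy chain that also pairs with B2M, at 31.7 ± 0.928 CPM in KO and 26.3 ± 1.19 CPM in WT, and CD47, a signal against phagocytosis, at 14.4 ± 0.972 CPM in KO and 18.9 ± 0.369 CPM in WT. Of 4 tested class I pseudogenes, HLA-V was lower in KO and the other 3 were not called. Of 15 tested genes of transport to and from the surface, 4 were higher and 4 lower, with KDELR1 at 0.15, MARCH8 at -0.31 and the coat gene SEC24D at -0.44, and SAR1B, a GTPase of vesicles that leave the endoplasmic reticulum, was the one past 1 on the log2 scale (1.06, with 48.9 ± 9.6 CPM in KO and 23.5 ± 1.14 CPM in WT). With the correction for length and GC, 3 were higher and 4 lower, MARCH8 was at -0.20, and KDELR1 was at 0.05 and no longer called (edgeR adjusted p = 0.138).

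**Figure D4:**
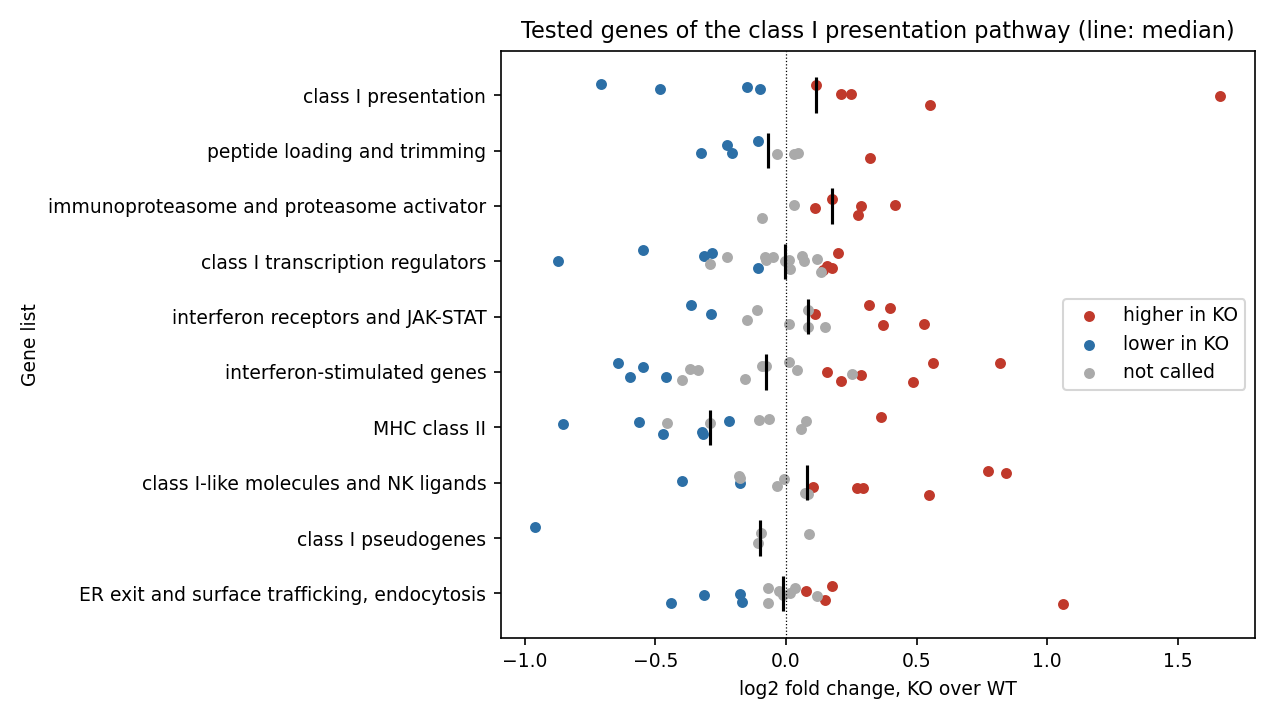
Log2 fold change, KO over WT, of each tested gene in 10 lists, with calls in colour and a line at each list's median. The class I presentation genes spread from -0.71 for HLA-G to 1.66 for HLA-B, and the lists around them hold calls on both sides of 0 except the immunoproteasome list, with 5 higher and 0 lower, and the pseudogenes, with 1 lower.

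Most of the set lies in the MHC on the short arm of chromosome 6. Within 200 kb of the starts of the 9 genes, 84 other genes were tested, of which 21 were higher and 19 lower in KO (median log2 fold change 0.01). Without KO 3, WT 2 and WT 3, 12 were lower. Near HLA-F, 4 of 13 tested neighbours were lower and 0 higher (median -0.42), and near HLA-G the numbers were 4 of 15 and 0 (median -0.18). Over all tested genes, 24.1% were lower and 21.9% higher, so the lower counts here are near that background. The same 4 genes were lower in both counts, and were chosen for naming after their values were seen: HLA-F-AS1 at 3.67 ± 0.372 CPM in KO and 6.71 ± 0.893 CPM in WT, HLA-V at 1.21 ± 0.103 CPM in KO and 2.37 ± 0.334 CPM in WT, HCG4 at 2.68 ± 0.334 CPM in KO and 4.41 ± 0.63 CPM in WT, and GABBR1 at 89.9 ± 3.96 CPM in KO and 101.6 ± 4.87 CPM in WT. Near HLA-B, 5 of 15 neighbours were higher and 3 lower, near HLA-C 4 of 11 and 2, and near HLA-E 6 of 14 and 2. POU5F1, the pluripotency factor, is a neighbour of HLA-B and HLA-C and was also higher, at 3213.7 ± 229.1 CPM in KO and 2617.3 ± 64.0 CPM in WT. Neighbours with small p included PFDN6 (0.53) and RPS18 (0.45) near TAPBP and MRPS18B (0.41) near HLA-E.

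From 200 kb before HLA-F to 200 kb past TAPBP, 131 other tested genes had at least 1 CPM in either group, 44 of them higher and 35 lower in KO (median 0.02). Over all tested genes, without that floor, 21.9% were higher and 24.1% lower. In the fit with a filter of 1 CPM in 5 libraries, 4026 of 15934 genes were higher and 4354 lower. A difference of the region from these was not tested. None of the 131 genes had a log2 fold change above that of HLA-B, 8 were above that of HLA-C and 6 were below that of HLA-G.

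**Figure D5:**
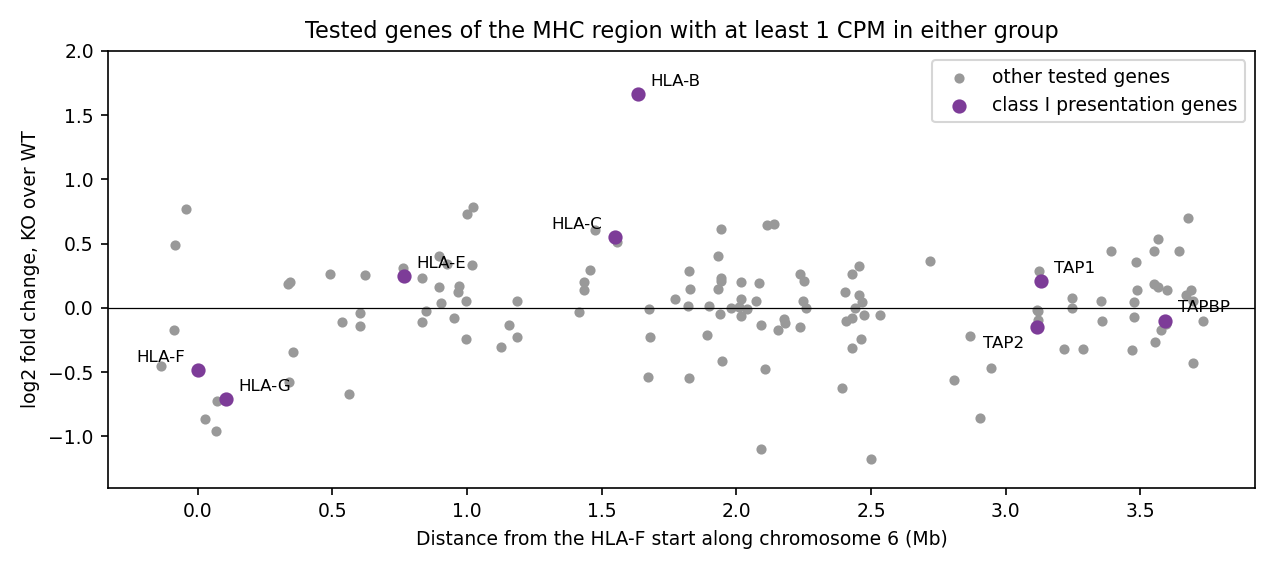
Log2 fold change, KO over WT, against distance from the HLA-F start along chromosome 6 in Mb, for the 8 class I presentation genes of the MHC (purple) and 131 other tested genes (grey). HLA-B at 1.66 is above every grey point, and HLA-F and HLA-G sit among grey points below 0.

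Likeness was measured as the mean absolute difference, over the 10 libraries, of log2 CPM less its WT mean, between the mean profile of the 9 genes and each of 12202 other genes with a mean of at least 5 CPM. The most alike were WIZ (0.014), PPP1R10 (0.016), ELAC2 (0.017), MFSD12 (0.018) and VAC14 (0.021), all with modest differences, such as WIZ at 67.9 ± 1.91 CPM in KO and 62.0 ± 1.21 CPM in WT. PPP1R10 is itself a neighbour of HLA-E. The mean profile hides the opposite directions within the set. For HLA-B alone, a profile chosen after its values were seen, the most alike was MT1X, a metallothionein, with 30.0 to 36.7 CPM in KO and 8.9 to 11.7 CPM in WT (0.088), then BX890604.2 (0.089), ZNF559 (0.118), ID1 (0.136) and TANC2 (0.141).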

How the data were processed

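PolyA RNA was sequenced with 150 paired-end cycles, per the labels' protocols. The authors deposited a table of raw gene counts for 10 libraries, and a table of KO against WT with a mean normalised signal, log2 fold change with SE, a score (fold change over SE), a p-value and an adjusted p-value. DESeq2, R 3.6.3 and the build hg38 appear in the submitters' processing notes. Aligner, counter, annotation and strandedness were not given in the sources used here.

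Groups came from the sample titles. Counts were tested with edgeR 4.0.16 (glmQLFit, glmQLFTest on group, TMM scaling, filterByExpr) in R 4.3.3, adjusted by Benjamini-Hochberg over 19163 genes, with calls under 0.05. Log2 CPM used a prior count of 2. The fits were tested on simulated data. Alternatives were DESeq2 1.42.0 size factors and Wald test, limma 3.58.1 voom, 2 other filters, a replicate block, 1 surrogate variable (sva 3.50.0), a length and GC correction (splines with 5 degrees of freedom, values known for 98.9% of tested genes), and libraries left out. The fit without KO 3, WT 2 and WT 3 was added after seeing the data. Positions, exons and lengths are from GENCODE 29 and promoters from RefSeq (GRCh38.p14).

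The genes and lists were chosen with earlier results of these data known, and some genes that the rules would have chosen are not reported here. Named list genes have the smallest p, up to 4 per list, or are past 1 on the log2 scale without overlap between groups. Others of a list, such as NLRC5, PSMB9, PDIA3, PSME1, PSME3, JAK1, MX1, MX2, OAS3, IFITM2 and HLA-DRA, were named after their values were seen.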

Additional observations from a re-analysis of the deposited data

How the results depend on the processing

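HLA-B, HLA-C, HLA-E, HLA-F, HLA-G and TAP1 kept their direction and call in all 20 alternative fits. B2M reversed to -0.052 with the length and GC correction (edgeR adjusted p = 0.162). The 4 lower calls among the 9 genes became 2 without both replicate 3 libraries and 2 without KO 3, WT 2 and WT 3, where B2M was not called either (edgeR adjusted p = 0.0863) and lower neighbours numbered 12 against 19. With 1 library left out at a time, lower calls among the 9 ran from 2 to 4, with 2 when KO 3, WT 1 or WT 3 was the one left out, and higher calls stayed at 5. The genes that lost calls were TAP2 and TAPBP, and the cause was not tested. The median log2 fold change of all tested genes lay between -0.019 and 0.012 in these fits.

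The labels do not say that a replicate number marks a shared culture or day. The correlation of deviations was 0.173 to 0.698 for 4 of the 5 numbers and -0.157 for number 2, so the libraries were not treated as pairs. With the replicate block, 4258 genes were higher and 4300 lower, against 4201 and 4615 without it, and 5 of the 9 genes were higher and 3 lower (TAPBP edgeR adjusted p = 0.0908).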
